A study of Mus musculus with 6 samples.

Results

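The 41 genes described here belong to the interferon response. They were taken by symbol from a list of interferon-induced genes and of the factors that induce them, and all 41 were found among the 46078 gene identifiers of the count table. Of the 41, 35 had a mean of at least 1 CPM (counts per 1000000 scaled reads) over the 6 libraries and were tested beside the 12078 genes of the whole series at or above that level. RNA came from MLE12, an immortal line of mouse lung epithelium made from a lung tumour of a mouse with a viral oncogene under the surfactant protein C promoter. The libraries were from knockout lines labelled Lingo1 KO, Lingo2 KO, Lingo3 KO and TROY KO and from the wild-type line, called parental here, each 24 hours after a pipet tip scratch of the monolayer, and from the parental line un-scratched. Each of these 6 groups had 1 library. LINGO proteins are leucine-rich repeat receptors best known from neurons, and TROY is a receptor of the tumour necrosis factor receptor family. How the knockouts were made and whether each line is 1 clone was not given in the sources used here.

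Interferons are secreted when a cell senses viral or displaced nucleic acid. Type I and type III interferons act through receptor-bound kinases on a complex that holds STAT2 and IRF9 and binds the interferon-stimulated response element (ISRE) of a large set of genes, while interferon gamma acts at GAS elements. The induced proteins degrade viral RNA, block translation, tag proteins with the ubiquitin-like ISG15 and load peptides onto class I molecules, and lung epithelium is a main site of this defence. Many of these genes also keep a low basal level without added interferon.

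Promoter sequences are shown for the members that differed in a knockout library, because the ISRE is the element through which the type I pathway is known to act. RefSeq promoter windows on build GRCm38.p6 (250 bases before to 50 bases after each gene's start) were found for 32 of the 41 members. The ISRE letters (GAAA, any 2 bases, then GAAA), searched on both strands with overlapping matches allowed, were in a window of 14 of these 32 genes (43.8%), against 3.44% of all 32851 windows and 3.99% of all 27025 genes in the table. The GAS letters TTCNNNGAA were in 7 of the 32 (21.9%), against 8.30% of all windows and 9.55% of all genes. A match of letters is a description of the reference genome, not of a bound site in these cells. Of the 10 members past a size rule given below, 8 had a window, and the 6 with ISRE letters before the start follow, each as the 250 bases before the start, read 5′ to 3′ on the gene's own strand. Capitals mark the ISRE letters on either strand.
Oas1a, chr5:120907526-120907775, minus strand: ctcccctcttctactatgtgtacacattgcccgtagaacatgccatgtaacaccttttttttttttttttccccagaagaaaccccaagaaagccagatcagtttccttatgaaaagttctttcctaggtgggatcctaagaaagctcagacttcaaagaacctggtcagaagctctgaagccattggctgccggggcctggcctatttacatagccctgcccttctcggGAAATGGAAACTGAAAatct
Oas3, chr5:120777660-120777909, minus strand: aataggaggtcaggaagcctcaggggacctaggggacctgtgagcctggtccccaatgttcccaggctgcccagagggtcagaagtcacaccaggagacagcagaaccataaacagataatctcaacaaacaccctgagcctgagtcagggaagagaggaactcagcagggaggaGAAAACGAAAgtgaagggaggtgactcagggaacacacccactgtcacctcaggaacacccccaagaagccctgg
Isg15, chr4:156200819-156201068, minus strand: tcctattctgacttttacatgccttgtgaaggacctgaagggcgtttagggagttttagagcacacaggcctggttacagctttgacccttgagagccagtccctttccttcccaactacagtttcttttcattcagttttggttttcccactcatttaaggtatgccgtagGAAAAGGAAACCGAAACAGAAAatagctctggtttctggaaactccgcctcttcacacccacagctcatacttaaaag
Gbp2, chr3:142620413-142620662, plus strand: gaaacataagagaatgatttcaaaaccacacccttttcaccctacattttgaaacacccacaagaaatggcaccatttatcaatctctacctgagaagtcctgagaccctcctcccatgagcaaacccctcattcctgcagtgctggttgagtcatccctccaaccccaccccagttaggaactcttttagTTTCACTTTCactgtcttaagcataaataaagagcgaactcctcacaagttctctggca
Ifit3, chr19:34583279-34583528, plus strand: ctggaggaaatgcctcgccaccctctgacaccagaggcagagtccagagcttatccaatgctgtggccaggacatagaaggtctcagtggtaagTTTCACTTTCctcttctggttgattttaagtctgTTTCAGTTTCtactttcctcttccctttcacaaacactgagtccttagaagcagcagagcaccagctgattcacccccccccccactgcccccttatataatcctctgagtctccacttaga
Stat2, chr10:128270248-128270497, plus strand: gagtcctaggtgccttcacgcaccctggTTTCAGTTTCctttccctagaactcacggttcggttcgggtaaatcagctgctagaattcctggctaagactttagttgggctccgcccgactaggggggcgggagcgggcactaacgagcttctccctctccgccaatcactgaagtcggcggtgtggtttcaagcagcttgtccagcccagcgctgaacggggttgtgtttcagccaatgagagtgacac
The letters began 20 bases before the start in Oas1a, where 2 overlapping matches run together, and 78 bases before it in Isg15, where 3 do. They began 75 bases before the start in Oas3 and 59 in Gbp2. In Ifit3 the 2 separate matches began 156 and 122 bases before the start, and in Stat2 the single match began 222 bases before it. The windows of Irf7 and Psmb9 held neither motif. ISRE letters thus stood before genes that were higher in the Lingo2 KO or Lingo3 KO library (Oas1a, Oas3, Isg15, Gbp2) and before 2 that were lower in knockout libraries (Stat2, Ifit3), as described below.

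Between 28109825 and 30776294 reads were counted in genes per library. The share of reads that HTSeq assigned to no gene lay between 4.98% and 6.41% in the knockout libraries and was 8.02% in the scratched and 7.80% in the unscratched parental library, and the part of this difference in the results was not tested. Epithelial identity was checked first: Krt8, a keratin of simple epithelia, lay between 309 and 505 CPM, and Nkx2-1, the lung lineage transcription factor, between 160 and 205 CPM, while Krt18, the usual partner of Krt8, had 9 to 14 counts and Sftpa1 0 or 1. The 8 epithelial markers summed to 2754 to 2932 CPM in knockout and 2060 and 2239 CPM in parental libraries, and the 9 alveolar type II markers to 442 to 623 CPM and 350 and 392 CPM, in the same order of groups. Of these, 2 of the 8 and 4 of the 9 had at most 3 counts in every library. Sftpb had 87.0 to 164 CPM in knockout and 35.6 and 40.1 CPM in parental libraries, and Sftpc 19.8 to 81.9 CPM and 18.3 and 16.5 CPM. Of 6 fibroblast markers, Dcn, which encodes decorin, was abundant in every library, at 2595 to 3321 CPM in knockout and 2532 and 2760 CPM in parental libraries, and Col1a2 and Lum had at most 3 counts in any library. Col1a1, a collagen chain, had 170, 136, 398 and 146 CPM in the Lingo1, Lingo2, Lingo3 and TROY KO libraries, against 44.8 CPM in the scratched and 62.3 CPM in the unscratched parental library. Pdgfrb, a growth factor receptor of mesenchymal cells, had 52, 37, 348 and 13 counts in the knockout libraries in that order, against 1 and 3 counts in the parental ones, and Pdgfra had 69, 86, 204 and 79 counts against 52 and 46. Col1a1, Pdgfrb and Pdgfra were thus highest in Lingo3 KO, while Dcn was highest in Lingo2 KO (3321 CPM, against 2997 CPM in Lingo3 KO). The 6 fibroblast markers summed to 3461 CPM in Lingo2 KO and 3413 CPM in Lingo3 KO. The Lingo3 KO library had the most members higher than the scratched parental library by the 1.5-fold rule given below (7, or 20%). It had the most genes higher in the whole series too, 10.6% of those tested, against 4.04% to 5.9% in the other knockout libraries. The 10 leukocyte and macrophage markers summed to 2.96, 3.61, 3.71 and 1.96 CPM in the Lingo1, Lingo2, Lingo3 and TROY KO libraries and to 2.04 and 2.06 CPM in the scratched and unscratched parental ones, and the part of these marker differences in the results was not tested. Of the leukocyte markers 7 had at most 3 counts in every library, and Ptprc, which encodes the pan-leukocyte protein CD45, had 0 in both parental libraries and in the Lingo2 KO library. The 5 endothelial markers summed to 323 counts in the scratched parental library, against 34 to 68 in the 4 knockout libraries and 37 in the unscratched parental one. In the scratched parental library Vwf had 169 counts, Kdr 74, Tie1 52 and Cdh5 20. Pecam1 was not raised, with 8 counts there, 4 to 15 in the knockout libraries and 9 in the unscratched parental one. Because the scratched parental library stands apart in this way and is the control of all 4 knockout comparisons, calls of named members and counts of called genes are followed by those against the unscratched parental library where they differ.

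Folds between 2 libraries are ratios of TMM-scaled counts, each with a 95% interval converted from the exact (Clopper-Pearson) binomial interval for the first library's part of both counts. With 1 library per group these intervals cover counting error only, and no p-value was computed. The 2-fold rule asked for a difference of 2-fold or more, up or down, with the interval bound nearest 1 beyond 1.5, and the 1.5-fold rule asked for 1.5-fold or more with that bound beyond 1.2. "Higher" and "lower", used of a gene between 2 libraries, mean that it passed the rule named.

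The members covered a wide range of levels in every library. On the authors' RPKM scale, which divides by gene length, B2m, the invariant chain of class I molecules, was the most abundant of the 38 members listed there, at 729, 854, 915 and 614 RPKM in the Lingo1, Lingo2, Lingo3 and TROY KO libraries, against 720 RPKM in the scratched and 734 RPKM in the unscratched parental library. Tapbp, the tapasin that loads peptides onto class I molecules, followed with 111 to 117 RPKM in the knockout libraries and 112 and 124 RPKM in the parental ones. Bst2, the tetherin that holds budding virus at the membrane, had 76.3 to 90.1 RPKM in knockout and 95.5 and 96.3 RPKM in parental libraries. Ifi27, an interferon-induced protein of mitochondria and nuclear envelope, had 44.5 to 67.8 RPKM in knockout and 45.8 and 49.7 RPKM in parental libraries. At the low end, Oas2 had 0.07 to 0.26 RPKM in knockout libraries and 0.06 and 0.09 RPKM in parental ones. The 5 most abundant members thus included 2 of antigen presentation, and the 3 lowest of the 38 were Oas2, Mx2 and Ifi44.

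**Figure D1:**
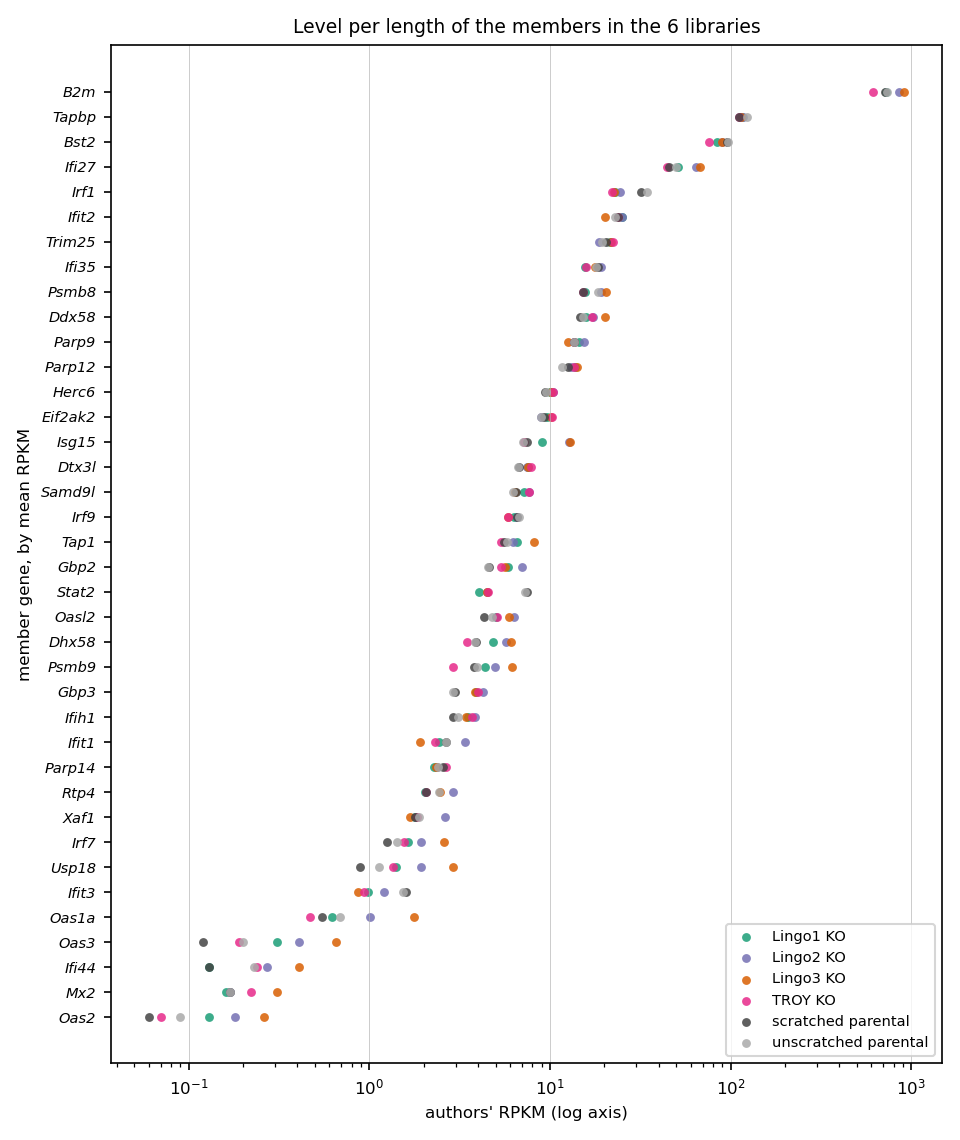
Authors' RPKM (log axis) of the 38 members listed in their table, 1 row per gene ordered by mean RPKM, with 1 point per library. The libraries lie close together in most rows; Oas1a, Oas3, Usp18 and Irf7 have the Lingo3 KO point (orange) at the right, and Stat2 and Irf1 have both parental points at the right.

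The 6 members below a mean of 1 CPM were Oas2, Mx1, Mx2, Rsad2, Cmpk2 and Ifi44, and they enter no count of members. Mx1, a dynamin-like antiviral protein that is defective in most laboratory mouse strains, had 1 to 5 counts in the knockout libraries and 2 in each parental one. Rsad2, the antiviral enzyme viperin, had 2 to 11 counts in knockout libraries and 9 in each parental one, and Mx2 had 11 to 24 counts in knockout and 13 and 12 counts in the scratched and unscratched parental libraries. Ifi44 had 15, 31, 52 and 30 counts in the Lingo1, Lingo2, Lingo3 and TROY KO libraries, against 16 in the scratched and 27 in the unscratched parental library. Its Lingo3 fold was 3.24 (1.82 to 6.08) against the scratched library and 1.81 (1.12 to 3) against the unscratched one.

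The scratch itself was asked about in the parental line. No member of the 35 was higher or lower by either rule 24 hours after the scratch, where 0.0828% of all tested genes passed the 2-fold rule and 0.472% the 1.5-fold rule. The members' median log2 fold, scratched over unscratched, was -0.02, beside -0.01 for all genes tested. Oas3 had the fold farthest from 1, at 0.559 CPM (17 counts) scratched and 0.977 CPM (28 counts) unscratched, a fold of 0.572 (0.294 to 1.08). Among the low members, Cmpk2, a mitochondrial nucleotide kinase next to Rsad2, had 14 counts scratched and 2 unscratched, a ratio of 6.59 (1.51 to 59.8).

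In the knockout libraries the response did not move as 1 block. Against the scratched parental library, 4 of the 35 members (11.4%) were higher by the 2-fold rule in the Lingo3 KO library, where 4.63% of all tested genes were higher. They were Oas3, Usp18, Oas1a and Irf7, and none was lower, where 2.56% of all genes were lower. In the Lingo2 KO library 2 members (5.71%), Oas3 and Usp18, were higher, where 2.12% of all genes were, and none was lower (1.38% of all genes). No member passed the 2-fold rule in the Lingo1 KO library, where 3.62% of all genes did in either direction, or in the TROY KO library, where 2.24% did. The 4 comparisons share the scratched parental library. Against the unscratched one, Oas1a, Oas3 and Usp18 still passed the 2-fold rule in Lingo3 KO, where 6.85% of all genes did in either direction, and Irf7 did not. No member passed it in Lingo1, Lingo2 or TROY KO, where 3.17%, 2.95% and 2.25% of all genes did.

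By the 1.5-fold rule 7 members were higher and 2 (5.71%) lower in Lingo3 KO, where 10.6% and 7.31% of all genes were. In Lingo2 KO 5 (14.3%) were higher and 1 (2.86%) lower, where 5.87% and 4.14% of all genes were. In Lingo1 KO 1 was higher and 1 lower, 2.86% of the members each way, and 5.90% and 4.41% of all genes were. In TROY KO none was higher and 1 (2.86%) lower, where 4.04% and 3.59% of all genes were. Against the unscratched library 7 members were higher and 3 lower in Lingo3 KO (9.48% and 6.93% of all genes) and 4 higher and 1 lower in Lingo2 KO (5.27% and 3.75%). There, none was higher and 2 were lower, Irf1 and Stat2, both in Lingo1 KO (4.84% and 4.03% of all genes) and in TROY KO (4.09% and 3.49%). Against the scratched library the members' shares in Lingo1 KO and TROY KO were thus at or below those of all genes, and in Lingo2 KO and Lingo3 KO the higher share was above it, on 5 and 7 genes. The median log2 fold of the 35 members was 0.09 in Lingo1 KO, 0.26 in Lingo2 KO, 0.17 in Lingo3 KO and 0.02 in TROY KO, beside 0.01, 0.02, 0.01 and 0.02 for all genes. Folds lay above 1 for 26, 27, 23 and 21 of the 35 members in these 4 libraries, where 51.2%, 53.1%, 50.8% and 53.5% of all genes had folds above 1. Against the unscratched library the members' medians were 0.07, 0.19, 0.15 and -0.03, beside -0.01, 0.01, -0.01 and 0.001 for all genes. Folds then lay above 1 for 21, 27, 23 and 17 of the 35, where 48.9%, 50.8%, 49.3% and 50.3% of all genes had such folds.

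**Figure D2:**
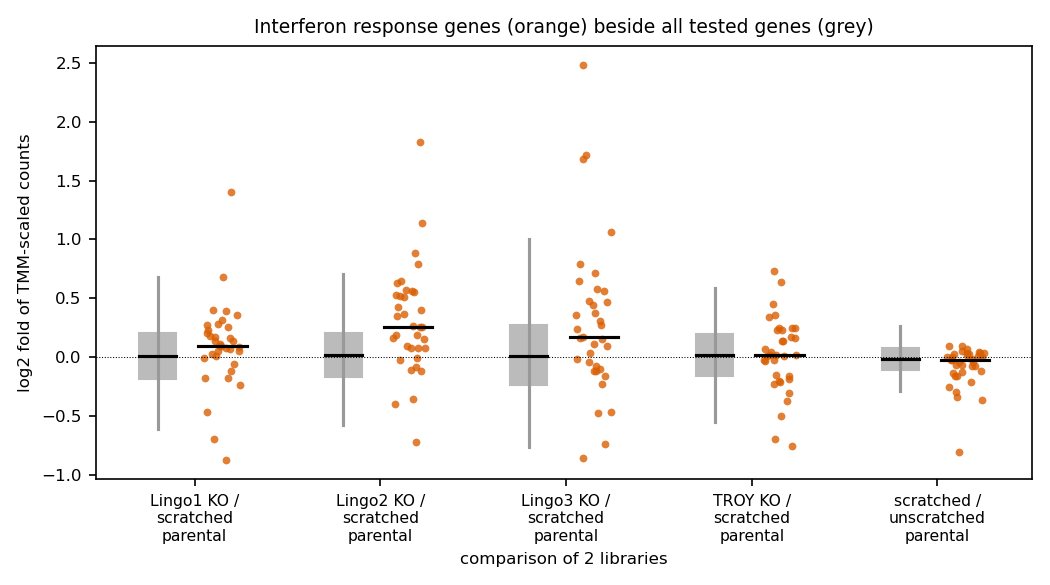
Log2 fold of TMM-scaled counts in 5 comparisons of 2 libraries. Grey boxes give the middle 50% of all 12078 tested genes with lines from the 5th to the 95th percentile, orange points are the 35 tested members, and black bars are medians. The members' median is 0.26 in the Lingo2 KO and 0.17 in the Lingo3 KO comparison, and most points lie inside the range of all genes, with 4 points above 1 in Lingo3 KO.

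Among the transcription factors of the response, Stat2 and Irf7 went opposite ways. Stat2, which encodes the partner of IRF9 in the type I interferon complex, had 18.1, 20.1, 19.8 and 20.4 CPM in the Lingo1, Lingo2, Lingo3 and TROY KO libraries, against 33.1 CPM in the scratched and 32.4 CPM in the unscratched parental library. All 4 knockout libraries were low and close together, and both parental libraries were high. Stat2 was lower by the 1.5-fold rule in every knockout library, by 1.83-fold (1.64 to 2.04), 1.64-fold (1.48 to 1.82), 1.67-fold (1.51 to 1.85) and 1.62-fold (1.46 to 1.79) against the scratched parental library, and by 1.59-fold to 1.79-fold against the unscratched one.

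Irf7, the factor that amplifies interferon gene transcription, had 5.38, 6.4, 8.50 and 5.15 CPM in the Lingo1, Lingo2, Lingo3 and TROY KO libraries, against 4.08 CPM in the scratched and 4.71 CPM in the unscratched parental library. Its highest level was in Lingo3 KO, and no knockout library fell to the parental levels. The Lingo3 KO fold was 2.08 (1.68 to 2.60) against the scratched parental library, higher by the 2-fold rule, and 1.80 (1.46 to 2.24) against the unscratched one, higher by the 1.5-fold rule. In Lingo2 KO it was 1.57-fold higher (1.24 to 1.99) by the 1.5-fold rule against the scratched library, and the fold of 1.36 (1.08 to 1.71) against the unscratched one passed neither rule. In Lingo1 KO and TROY KO the folds of 1.32 (1.03 to 1.69) and 1.26 (0.992 to 1.61) passed neither rule.

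Irf1, an early factor of interferon gamma and cytokine responses, had 49.5, 53.4, 49.0 and 48.3 CPM in the Lingo1, Lingo2, Lingo3 and TROY KO libraries, against 68.2 CPM in the scratched and 74.5 CPM in the unscratched parental library. The knockout and parental libraries did not overlap. No fold of Irf1 passed a rule against the scratched library (0.726, 0.783, 0.719 and 0.708). Against the unscratched library it was lower by the 1.5-fold rule in Lingo1 KO (1.5-fold), Lingo3 KO (1.52-fold) and TROY KO (1.54-fold). Irf9 stayed between 23 and 25.7 CPM in knockout libraries, against 25.7 and 26.5 CPM in the parental ones.

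The oligoadenylate synthetases make the second messenger that switches on RNase L, which cuts viral and cellular RNA. Oas3, the member of this family that acts on long double-stranded RNA, had 1.48, 1.98, 3.12 and 0.931 CPM in the Lingo1, Lingo2, Lingo3 and TROY KO libraries (41, 56, 95 and 28 counts), against 0.559 CPM in the scratched and 0.977 CPM in the unscratched parental library (17 and 28 counts). Lingo3 KO was highest, and TROY KO lay within the parental range. Against the scratched library Oas3 was 5.58-fold higher (3.31 to 9.97) in Lingo3 KO and 3.55-fold (2.03 to 6.51) in Lingo2 KO by the 2-fold rule, and 2.65-fold (1.47 to 4.97) in Lingo1 KO by the 1.5-fold rule. Against the unscratched library, whose level was higher, the folds were 3.19 (2.07 to 5.05), 2.03 (1.27 to 3.32) and 1.51 (0.914 to 2.54), of which the last passed neither rule.

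Oas1a, an oligoadenylate synthetase with several similar copies beside it on chromosome 5, had 1.19, 1.95, 3.38 and 0.898 CPM in the Lingo1, Lingo2, Lingo3 and TROY KO libraries (33, 55, 103 and 27 counts), against 1.05 CPM in the scratched and 1.33 CPM in the unscratched parental library (32 and 38 counts). Lingo3 KO was high, Lingo2 KO lay next, and Lingo1 KO lay within the parental pair. The Lingo3 KO fold was 3.21 (2.14 to 4.94) against the scratched and 2.55 (1.74 to 3.80) against the unscratched parental library, both higher by the 2-fold rule. In Lingo2 KO the fold of 1.85 (1.18 to 2.96) passed neither rule. Reads shared with the copies may be missing from these counts, because reads that aligned to more than 1 place were not counted. Oas2, below the level tested, had 14, 20, 32 and 9 counts in the knockout libraries, in the same order, and 7 and 10 in the scratched and unscratched parental ones. Oasl2, which is related to OAS proteins and carries ubiquitin-like domains, lay between 15.9 and 20.2 CPM in knockout libraries and at 13.6 and 15.1 CPM in parental ones, with folds of 1.17 to 1.49 against the scratched library that passed neither rule.

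The ISG15 system tags proteins with ISG15 and removes it again. Usp18, the protease that removes ISG15 and that also restrains signalling at the type I receptor, had 2.53, 3.47, 5.18 and 2.46 CPM in the Lingo1, Lingo2, Lingo3 and TROY KO libraries (70, 98, 158 and 74 counts), against 1.58 CPM in the scratched and 2.02 CPM in the unscratched parental library (48 and 58 counts). All knockout libraries lay above both parental ones, and Lingo3 KO was highest. By the 2-fold rule Usp18 was 3.28-fold higher (2.36 to 4.64) in Lingo3 KO and 2.20-fold (1.54 to 3.17) in Lingo2 KO against the scratched library. Against the unscratched library the folds were 2.56 (1.88 to 3.52), past the 2-fold rule, and 1.71 (1.23 to 2.41), past the 1.5-fold rule. In Lingo1 KO and TROY KO the folds of 1.60 (1.09 to 2.36) and 1.56 (1.07 to 2.29) passed neither rule.

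Isg15 itself had 6.93, 9.84, 9.87 and 5.55 CPM in the Lingo1, Lingo2, Lingo3 and TROY KO libraries, against 5.69 CPM in the scratched and 5.41 CPM in the unscratched parental library. The Lingo2 KO and Lingo3 KO libraries were alike in level and the highest, and TROY KO lay within the parental pair. Isg15 was 1.73-fold higher (1.43 to 2.10) in Lingo2 KO and 1.74-fold (1.44 to 2.11) in Lingo3 KO by the 1.5-fold rule, with 1.82-fold and 1.83-fold against the unscratched library. Herc6, the ISG15 ligase of mice, lay between 48.0 and 50.4 CPM in knockout libraries and at 45 and 45.7 CPM in parental ones. Trim25, a ubiquitin ligase of the RIG-I pathway, lay between 106 and 127 CPM in knockout libraries and at 115 and 110.5 CPM in parental ones, and neither passed a rule.

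**Figure D3:**
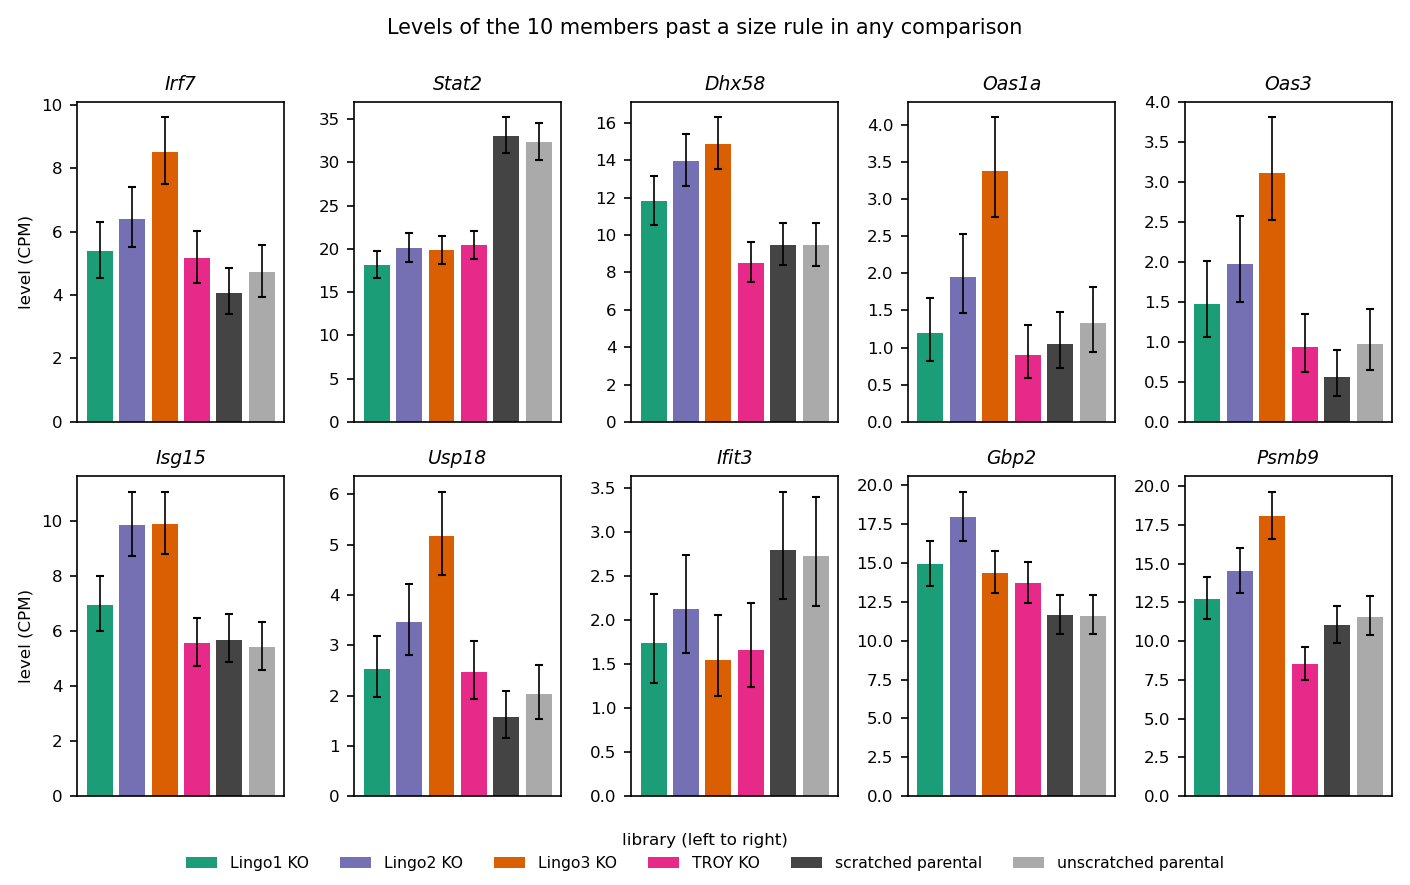
Levels in CPM of the 10 members that passed a size rule in any of the 5 comparisons, 1 bar per library with its 95% Poisson interval (counting error only) and the knockout libraries left of the parental ones. Oas3, Oas1a, Usp18 and Irf7 stand highest in Lingo3 KO at 3.12, 3.38, 5.18 and 8.50 CPM, while Stat2 and Ifit3 stand highest in the scratched parental library at 33.1 and 2.79 CPM.

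Of the 3 RNA sensors, Dhx58, which encodes the RIG-I-like helicase LGP2, had 11.8, 13.9, 14.9 and 8.51 CPM in the Lingo1, Lingo2, Lingo3 and TROY KO libraries, against 9.47 CPM in the scratched and 9.46 CPM in the unscratched parental library. The TROY KO library was the only 1 of the 4 below both parental libraries. Dhx58 was 1.57-fold higher (1.35 to 1.83) in Lingo3 KO by the 1.5-fold rule, with the same fold of 1.57 (1.35 to 1.83) against the unscratched library, and passed no rule elsewhere against a parental library. Ddx58, which encodes RIG-I, lay between 61.8 and 79.3 CPM in knockout libraries and at 57.0 and 59.8 CPM in parental ones. Ifih1, which encodes MDA5, lay between 18.9 and 21.5 CPM and at 16.0 and 17.3 CPM in the same groups. In both the knockout libraries were above the parental ones by less than either rule asks.

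The direct antiviral effectors had no member higher by either rule against a parental library among the 7 tested. By the 1.5-fold rule 4.04% to 10.6% of all genes were higher in the knockout libraries against the scratched one. None of 7 is near that share. Ifit3, which helps IFIT1 bind viral RNA that lacks a proper cap, had 1.73, 2.12, 1.54 and 1.66 CPM in the Lingo1, Lingo2, Lingo3 and TROY KO libraries (48, 60, 47 and 50 counts), against 2.79 CPM in the scratched and 2.72 CPM in the unscratched parental library (85 and 78 counts). Both parental libraries were above all 4 knockout ones. Ifit3 was lower by the 1.5-fold rule in Lingo3 KO, by 1.81-fold (1.25 to 2.65) against the scratched and 1.77-fold (1.21 to 2.59) against the unscratched parental library, and its folds in the other 3 knockout libraries passed neither rule. Ifit1 had 6.53, 9.16, 5.15 and 6.25 CPM in the knockout libraries in the same order and 7.10 and 7.15 CPM in the scratched and unscratched parental ones, with Lingo2 KO highest and Lingo3 KO lowest. Ifit2, the most abundant IFIT gene, lay between 78.0 and 97.4 CPM in knockout libraries and at 91.3 and 89.0 CPM in parental ones. Eif2ak2, which encodes the translation-blocking kinase PKR, lay between 39.2 and 45.1 CPM and at 39.9 and 38.8 CPM in the same groups, and Bst2, Samd9l and Rtp4 passed no rule either.

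Among the other induced genes, Gbp2, a guanylate-binding protein that attacks vacuoles of intracellular microbes, had 14.9, 18, 14.4 and 13.7 CPM in the Lingo1, Lingo2, Lingo3 and TROY KO libraries, against 11.6 CPM in each parental library. It was 1.54-fold higher (1.35 to 1.77) in Lingo2 KO by the 1.5-fold rule, and 1.55-fold (1.34 to 1.78) against the unscratched library. All 4 knockout libraries were above both parental ones for Gbp2 and for Gbp3, which lay between 10.4 and 11.6 CPM in knockout libraries and at 8.02 and 7.92 CPM in parental ones. Ifi27 had 50.8, 64.1, 67.1 and 44.3 CPM in the knockout libraries and 45 and 49.3 CPM in the scratched and unscratched parental ones, and passed neither rule against them. Xaf1, an antagonist of apoptosis inhibitors, was at 6.93 CPM in Lingo2 KO and between 4.40 and 4.96 CPM in the other 5 libraries. The 4 PARP and DTX3L genes, which encode ADP-ribosyl transferases and a partner ubiquitin ligase, were the flattest group, with log2 folds from -0.18 to 0.23 over the 4 knockout comparisons.

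Against the scratched library all 5 class I antigen processing members had folds above 1 in Lingo1, Lingo2 and Lingo3 KO, and 2 of 5 did in TROY KO. Their median log2 folds were 0.06, 0.26, 0.45 and -0.03. Of all genes, 51.2%, 53.1%, 50.8% and 53.5% had folds above 1. All 5 members were below 1 in the scratched over the unscratched parental library (log2 folds -0.29 to -0.04). Against the unscratched library all 5 were below 1 in TROY KO. So were Psmb8, Tapbp and B2m in Lingo1 KO and Tapbp in Lingo2 and Lingo3 KO. Psmb9, an immunoproteasome subunit that shares a divergent promoter with the peptide transporter gene Tap1, had 12.7, 14.5, 18.1 and 8.51 CPM in the Lingo1, Lingo2, Lingo3 and TROY KO libraries, against 11.0 CPM in the scratched and 11.6 CPM in the unscratched parental library. The TROY KO library was the lowest and Lingo3 KO the highest of the 6. Psmb9 was 1.64-fold higher (1.43 to 1.89) in Lingo3 KO by the 1.5-fold rule and 1.56-fold (1.36 to 1.79) against the unscratched library. Tap1 had 26.1, 24.9, 32.2 and 21.4 CPM in the same order of knockouts and 21.8 and 22.8 CPM in the scratched and unscratched parental libraries. B2m had 634, 747, 797 and 538 CPM in the knockout libraries and 623 and 641 CPM in the parental ones, a range of 1.48-fold from lowest to highest. Psmb8 and Tapbp passed no rule.

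**Figure D4:**
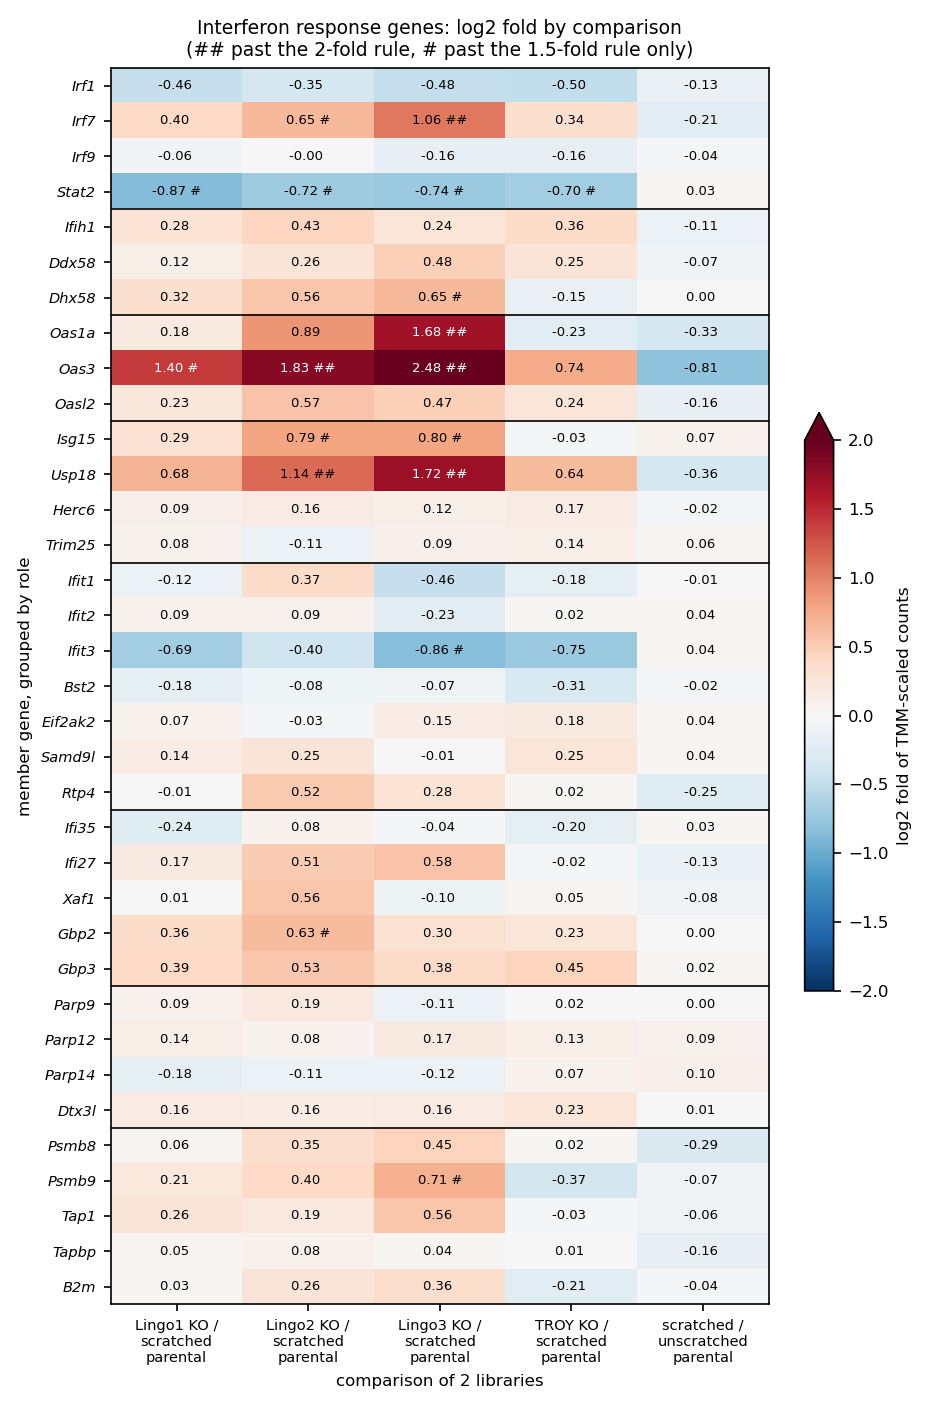
Log2 fold of TMM-scaled counts for the 35 tested members (rows, grouped by role) in 5 comparisons of 2 libraries (columns), with red for folds above 1 and blue for folds below 1. Oas3 at 2.48, Usp18 at 1.72, Oas1a at 1.68 and Irf7 at 1.06 are past the 2-fold rule in Lingo3 KO, Stat2 is below 0 in all 4 knockout columns, and the scratched over unscratched column is pale.

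All 4 knockout libraries lay above both parental libraries for 10 of the 35 members (28.6%), where 24.2% of all tested genes had that order. These were Irf7, Ifih1, Ddx58, Oasl2, Usp18, Herc6, Gbp2, Gbp3, Parp12 and Dtx3l. All 4 lay below both for 5 members (14.3%), Irf1, Irf9, Stat2, Ifit3 and Bst2, where 21.9% of all genes had that order. Both shares were near those of all genes. The highest of the 6 levels was in Lingo3 KO for 13 members (37.1%; 25.3% of all genes), in Lingo2 KO for 11 (31.4%; 14.8%), in TROY KO for 5 (14.3%; 16.5%) and in Lingo1 KO for none (7.17% of all genes), and in the scratched and unscratched parental libraries for 2 (17.1% of all genes) and 4 (19.1%).

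Lingo3 KO was also set against the other 3 knockout libraries, a comparison added after seeing the data. Against TROY KO 9 members were higher by the 1.5-fold rule (25.7%), where 4.99% of all genes were, and none was lower, where 2.17% were. The 9 were Irf7, Dhx58, Oas1a, Oas3, Isg15, Usp18, Ifi27, Psmb9 and Tap1, with Oas1a at 3.76-fold (2.44 to 5.98), Oas3 at 3.35-fold (2.18 to 5.30), Psmb9 at 2.12-fold (1.83 to 2.47) and Usp18 at 2.11-fold (1.59 to 2.82). Against Lingo1 KO 4 were higher (11.4%; 3.23% of all genes), Oas1a at 2.84-fold (1.90 to 4.34), Oas3 at 2.11-fold (1.45 to 3.12), Usp18 at 2.05-fold (1.54 to 2.76) and Irf7 at 1.58-fold (1.29 to 1.95), and none was lower (1.26%). Against Lingo2 KO 1 was higher (2.86%; 3.17% of all genes), Oas1a at 1.74-fold (1.24 to 2.45), and 2 were lower (5.71%; 1.60%), Ifit1 at 1.78-fold (1.45 to 2.18) and Xaf1 at 1.58-fold (1.26 to 1.98). The Usp18 fold of Lingo3 KO over Lingo2 KO was 1.49 (1.15 to 1.94) and passed neither rule.

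Transcripts of the interferons themselves were at the detection limit. Of 11 interferon genes searched, 8 had no count in any library, and Ifnb1, Ifna4 and the lambda genes Ifnl2 and Ifnl3 were among them. A count of 0 allows up to 0.121 to 0.133 CPM (95% Poisson limit). Ifne and Ifng had 1 count in all, and Ifnz had 0 to 4 per library. Their receptors and kinases were all expressed, and none of the 9 passed a rule in any of the 5 comparisons. By the 1.5-fold rule 4.04% to 10.6% of all genes were higher and 3.59% to 7.31% lower in the knockout libraries against the scratched one. Jak1 was higher by that rule in Lingo3 KO against the unscratched library, where 9.48% of all genes were. Ifnar1 lay between 106 and 113 CPM in knockout libraries and at 122 and 123 CPM in parental ones. Jak1 had 189 CPM in Lingo3 KO and 151 to 159 CPM in the other knockout libraries, against 127 CPM in the scratched and 124 CPM in the unscratched parental library.

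Of 17 tested genes that sense nucleic acids or induce interferon, none was lower by the 2-fold rule. Of all genes, 2.56% were lower by it in Lingo3 KO and 1.38% in Lingo2 KO against the scratched library. In Lingo1 KO and TROY KO 3.62% and 2.24% passed it in either direction, so none of 17 is near the share of all genes. Tlr7, the endosomal receptor for single-stranded RNA, had 39, 33, 244 and 26 counts in the Lingo1, Lingo2, Lingo3 and TROY KO libraries, against 9 in the scratched and 7 in the unscratched parental library. The Lingo3 KO library stood far above the other 5, over which the mean of Tlr7 was 0.796 CPM, so it reached the level tested only through that library and is given by its counts, without a call. Tmem173, which encodes the adaptor STING, had 79, 70, 76 and 54 counts in the knockout libraries, against 24 in the scratched and 39 in the unscratched parental library, and was 3.61-fold (2.26 to 5.97), 3.14-fold (1.95 to 5.22) and 3.16-fold (1.97 to 5.23) higher in Lingo1, Lingo2 and Lingo3 KO by the 2-fold rule against the scratched library. Set against the unscratched library, its folds there were 2.10, 1.82 and 1.83 and passed only the 1.5-fold rule. Of 14 tested inhibitors, Nlrc3 was lower by the 2-fold rule in Lingo1, Lingo2 and Lingo3 KO and by the 1.5-fold rule in TROY KO, against either parental library, with 21, 32 and 23 counts there and 37 in TROY KO, against 83 and 79 in the scratched and unscratched parental libraries. Ptpn6, a phosphatase of cytokine receptors, was 2.69-fold higher (1.61 to 4.63) in Lingo2 KO by the 2-fold rule, and passed only the 1.5-fold rule there against the unscratched library. By the 2-fold rule against the scratched library 2.12% of all genes were higher and 1.38% lower in Lingo2 KO, and 4.63% and 2.56% in Lingo3 KO. Single genes of 14 or 17 are too few to set against these shares.

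Another 55 tested interferon-induced genes lay outside the 41. By the 1.5-fold rule against the scratched library 12 of the 55 were higher and 3 lower in Lingo3 KO, where 10.6% and 7.31% of all genes were, and 8 and 1 in Lingo2 KO (5.87% and 4.14%). In Lingo1 KO 2 were higher and 1 lower (5.9% and 4.41% of all genes), and in TROY KO none and 1 (4.04% and 3.59%). Against the unscratched library the counts were 8 and 3 in Lingo3 KO (9.48% and 6.93% of all genes) and 7 and 1 in Lingo2 KO (5.27% and 3.75%). They were 3 and 1 in Lingo1 KO (4.84% and 4.03%), and 1 and 2 in TROY KO (4.09% and 3.49%). Against the scratched library the 4 knockouts, from Lingo3 through Lingo2 and Lingo1 to TROY KO, had median log2 folds of 0.15, 0.21, 0.12 and 0.11. By the 2-fold rule against the scratched library 3 of the 55 were higher and 1 lower in Lingo3 KO. Of all genes 4.63% were higher and 2.56% lower, so both counts were near those shares. The 3 were Ccl2, a monocyte chemokine, at 2.81-fold (1.79 to 4.53), Ifi27l2a at 2.57-fold (1.61 to 4.21) and Slfn8 at 2.16-fold (1.78 to 2.63). These 3 passed the 2-fold rule against the unscratched library too, with Ifi27l2a at 3.94-fold, and so did Oasl1, an OAS-like gene, at 2.36-fold (1.93 to 2.90). There 6.85% of all genes passed it in either direction. Oas1b, whose intact form protects mice from flaviviruses, was lower instead, with 38, 50, 35 and 44 counts in the Lingo1, Lingo2, Lingo3 and TROY KO libraries, against 99 in the scratched and 98 in the unscratched parental library. It was 2.37-fold lower in Lingo1 KO, 2.83-fold in Lingo3 KO and 2.23-fold in TROY KO by the 2-fold rule, and lower in Lingo2 KO by the 1.5-fold rule. In Lingo1 KO and TROY KO 3.62% and 2.24% of all genes passed the 2-fold rule in either direction. Of 24 further antigen processing and presentation genes, 8 were higher by the 1.5-fold rule in Lingo3 KO against the scratched library (10.6% of all genes were), 5 in Lingo2 KO (5.87%), 2 in Lingo1 KO (5.9%) and 1 in TROY KO (4.04%). None of the 24 was lower, where 7.31%, 4.14%, 4.41% and 3.59% of all genes were lower in these libraries, in the same order. A list of 24 is too short to tell none from such shares. With the unscratched library as control 5, 1, 1 and 0 were higher, where 9.48%, 5.27%, 4.84% and 4.09% of all genes were.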

How the data were processed

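Per the labels, total RNA of MLE12 cultures went into a messenger RNA library kit. The submitters' processing notes name Trimmomatic 0.39, STAR, HTSeq, edgeR and build GRCm38, without order or settings, and do not say whether counting used the strand. The deposited files hold raw counts per Ensembl gene, and a table of RPKM values with log2 ratios of those, which lists 13600 rows after a filter not stated. Deposited RPKM matched the deposited counts of 7594 genes up to a scale for the gene and one for the library (SD 0.000718 log2 units). The deposited log2 ratios served as a check and differed from those computed here by at most 0.02 in the tested members.

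Counts were scaled by TMM (edgeR 4.0.16, R 4.3.3) across the 6 libraries, with 28109825 to 30776294 reads per library. Symbols and positions came from GENCODE release 21 of mouse, matched by identifier for 45229 of 46078 genes. Lines naming no gene were left out of library sizes. The 5 comparisons, their 2 size rules and the intervals stand in the report. No test was possible with 1 library per group, and the size rules do not replace one. They allow for counting error only, not for differences between cultures of 1 line. The size rules were tried on simulated counts with counting error only and true folds larger than the rules ask for. Calls near the limits of the rules were thus not checked. The motif search was tried on a made-up string. The members and gene lists were chosen with earlier results of these data known. Named members are those past a size rule, Usp18, Oas1a and Irf7, and the 5 most abundant; further members are given by range. Other lists name up to 4 genes per comparison past the 2-fold rule; the interferon genes, Ifnar1, Jak1 and the class II genes at low counts were named outside it, after their values were seen. The 8 members that share at least 5% of their exon bases with another gene were left out in 1 alternative, added after seeing the data. Other alternatives were DESeq2 size factors (version 1.42.0), total counts, no filter or a mean of 5 CPM, and the unscratched control.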

Additional observations from a re-analysis of the deposited data

How the results depend on the processing

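No paired analysis was possible because each group had 1 library, and for the same reason no library could be left out within a group. The 17 results (counts of members past each rule, medians, and counts by order of levels) kept within 1.5 times, or within the counting interval for medians, with DESeq2 size factors, with the authors' deposited log2 ratios for the medians, and without the 8 members that share exon bases. Of the 2 members past the 2-fold rule in Lingo2 KO, 1 remained with total counts, 0 when the mean had to reach 5 CPM, and 0 against the unscratched parental library. Of the 4 in Lingo3 KO, 1 remained when the mean had to reach 5 CPM, because Oas1a, Oas3 and Usp18 lie below that level, and of the 9 past the 1.5-fold rule there, 5 remained. In Lingo1 KO the 1.5-fold rule gave 1 member in place of 2 at that minimum, and in TROY KO it gave 2 in place of 1 with total counts and against the unscratched library. With no filter the scratch comparison gave 1 member, Cmpk2, by either rule in place of 0. Depth limits the low members: 3 counts stand at 0.0984 to 0.108 CPM.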

Other observations

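Genes of the class II pathway, which interferon gamma also induces, were measured at low levels. Cd74, the invariant chain, had 85, 75, 159 and 56 counts in the Lingo1, Lingo2, Lingo3 and TROY KO libraries, against 26 in the scratched and 35 in the unscratched parental library, and was 6.10-fold higher (4.01 to 9.63) in Lingo3 KO against the scratched and 4.27-fold (2.95 to 6.35) against the unscratched library. H2-DMa, a peptide exchange factor, had 81, 84, 142 and 57 counts in the knockout libraries, against 38 in the scratched and 60 in the unscratched parental library, 3.73-fold higher (2.59 to 5.48) in Lingo3 KO against the scratched and 2.22-fold (1.63 to 3.06) against the unscratched library. Both passed the 2-fold rule in Lingo1, Lingo2 and Lingo3 KO against the scratched library. Of all genes, 2.12% and 4.63% were higher by it in Lingo2 and Lingo3 KO, and 3.62% passed it in either direction in Lingo1 KO. Against the unscratched library Cd74 passed it in Lingo1 and Lingo3 KO and H2-DMa in Lingo3 KO. The class II chains H2-Aa, H2-Ab1 and H2-Eb1 had at most 7 counts in any library, and the transactivator Ciita had 9 to 21. H2-Q10, a class I gene with near-identical copies, had 133, 130, 224 and 71 counts in the knockout libraries, against 101 in the scratched and 104 in the unscratched parental library, and was 2.21-fold (1.74 to 2.83) and 2.02-fold (1.60 to 2.58) higher in Lingo3 KO against them.

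Of 18 tested NF-kB target genes, which inflammatory signals induce through another route, Tnfaip2 was higher by the 2-fold rule in Lingo1, Lingo2 and Lingo3 KO, with 79, 56 and 64 counts there and 31 in TROY KO, against 16 in the scratched and 24 in the unscratched parental library, where it did not pass that rule in Lingo2 KO. Traf1 was 2.41-fold higher (1.65 to 3.58) in Lingo2 KO by the 2-fold rule against the scratched library, and its fold of 1.79 (1.26 to 2.57) against the unscratched one passed only the 1.5-fold rule. Of all genes, 2.12% and 4.63% were higher by the 2-fold rule in Lingo2 and Lingo3 KO against the scratched library, and 3.62% passed it in either direction in Lingo1 KO. None of the 18 passed the 2-fold rule in TROY KO, where 2.24% of all genes did in either direction against the scratched library. Calls of 1 or 2 genes of 18 are too few to set against these shares. Vcam1, an adhesion molecule, had 802 CPM in Lingo3 KO and 1562 to 1741 CPM in the other knockout libraries, against 1507 CPM in the scratched and 1657 CPM in the unscratched parental library. It was lower in Lingo3 KO by the 1.5-fold rule against the scratched and by the 2-fold rule against the unscratched library.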
